A study of Mus musculus with 10 samples.

Results

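The 10 acyl-CoA thioesterase genes described here are Acot1, Acot2, Acot3, Acot4, Acot6, Acot7, Acot8, Acot9, Acot12 and Acot13. They were chosen by gene symbol from a table of 47702 genes, and each matched 1 gene of it. The liver RNA came from female mice in which Etnppl was knocked out in the whole body (KO) and from wild-type (WT) females. Both genotypes had eaten chow for 20 weeks, with 5 libraries of each. The sources used here do not give the strain, the targeted exons or the animals' age at the start. Etnppl encodes the enzyme that breaks down phosphoethanolamine.

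Acyl-CoA thioesterases cut the bond between a fatty acid or other acid and coenzyme A, so that free acid and free coenzyme A are released. They work against the acyl-CoA synthetases, which form the bond, and different members sit in the cytosol, the mitochondrion and the peroxisome. The type I enzymes (Acot1 to Acot6) are close relatives encoded side by side, several of them known targets of the fatty acid receptor PPAR alpha in liver, whereas the type II enzymes (Acot7, Acot8, Acot9, Acot12 and Acot13) have another fold and are encoded outside this cluster.

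Values were FPKM, the fragments of a gene per kilobase of transcript, scaled to the library's total, so levels can be set side by side between genes. Genes averaging 0.5 FPKM or more over the 10 libraries were tested with limma on log2(FPKM + 0.5), and a gene was called where its p, adjusted by Benjamini-Hochberg over all 12247 genes tested, was under 0.05. The labels do not say that each library is 1 animal, so the p-values rest on the spread among these samples alone, which may be technical. Depth, estimated from the steps between low values, was 20800000 to 26200000 fragments per library. Etnppl, the check of the labels, was 43.32 to 108.39 FPKM in WT and 17.72 to 26.43 FPKM in KO (log2 difference -1.49, limma adjusted p = 0.005), so transcript of the targeted gene remained in every KO library. The hepatocyte marker Alb was at 39869 FPKM or more in every library, as the liver label has it. Of 13 Kupffer cell and macrophage markers 5 fell, none rose and 8 were not called, against 4.56% of all tested genes called lower in KO. Their log2 differences ran from -0.58 to 0.75, with a median of -0.28, so not all pointed down. Between 3 and 6 fell when 1 library was left out, and 3 fell without WT 1, WT 2, WT 3, KO 2 or KO 5. The summed level of the 13 markers was 341 to 416 FPKM in WT and 247 to 360 FPKM in KO. Their part in the results below was not tested. In bulk tissue, fewer cells of a type and less RNA per cell cannot be told apart.

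Acot3 fell to 35.6% of its WT level and Acot12 rose to 118%, and the other 8 members did not pass the test. All 10 members passed the filter on low values. Over all tested genes 8.54% were called, 3.98% higher and 4.56% lower in KO. Among the members 1 was higher and 1 was lower, and the median log2 difference was -0.13 against -0.02 over all tested genes. The libraries of the genotypes did not overlap for 2 members, and for 8.87% of all tested genes.

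**Figure D1:**
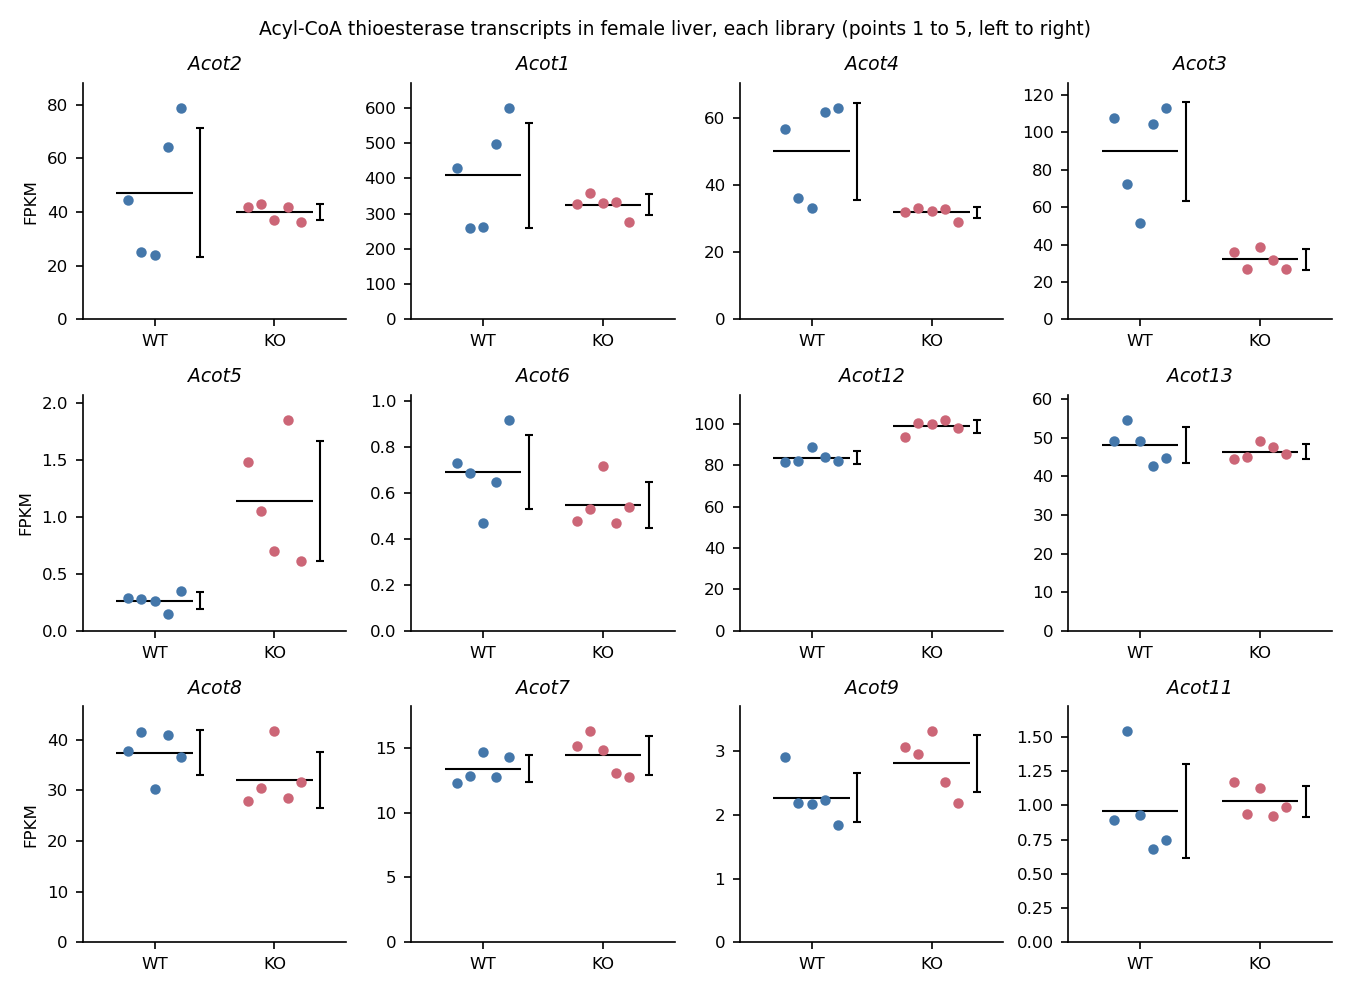
Each panel shows 1 gene, with FPKM on a linear axis from 0 and a point for each of the 5 WT (blue) and 5 KO (red) libraries; the line is the mean and the bar the SD. The KO points of Acot3 lie between 26.7 and 38.86 FPKM, below every WT point, while the WT points of Acot1, Acot2 and Acot4 spread far wider than the KO points.

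The type I genes form a cluster of 6 on chromosome 12 from 83987861 to 84111349 (mm10, GENCODE positions), a stretch of 123.5 kb, all on the plus strand in the order Acot2, Acot1, Acot4, Acot3, Acot5 and Acot6. Acot5 is a peroxisomal type I enzyme and no member of the 10, but it lies beside Acot3 and is given with it. The ends of the coding sequences are shown because the enzymes differ there in the signal for the peroxisome. The last 30 coding bases are printed 5′ to 3′ without the stop codon (GENCODE, GRCm38), and the capitals mark the last 3 codons, where peroxisomal proteins carry their import signal:

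Acot2: ttcttccacaaacagttgggtAGCAAGAGT
Acot1: agtgagtgtttgcatgtgtctCCTAAAATA
Acot4: agtacccacagcagagcctccTGTAGACTG
Acot3: ggcaaaaagaagacaatcccaGCAAAACTG
Acot5: ggggacaagaggccaagcccaGCAAAACTA
Acot6: ggtgaaaagcctgccaggcacAGCAAACTG

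As background, Acot1 is cytosolic, Acot2 mitochondrial, and Acot3, Acot4, Acot5 and Acot6 peroxisomal. The coding sequences of Acot1 and Acot2 were 95.7% identical over 1236 aligned bases. Acot3 was 86.6% identical to Acot5, 86.8% to Acot2 and 80.4% to Acot4. Of the 50-base windows of the Acot1 transcript 33.6% also occurred in another gene of the table, against 27.7% for Acot2, 22.8% for Acot5, 8.31% for Acot3, 6.71% for Acot6 and 4.87% for Acot4. Of the 100-base windows fewer were shared, 21.9% for Acot1, 17.1% for Acot2, 8.32% for Acot5 and 4.44% for Acot3. Values of Acot1, Acot2 and Acot5 are therefore uncertain, since reads in shared windows could be assigned to more than 1 gene.

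Acot3 hydrolyses long-chain acyl-CoA in the peroxisome. Its level (ENSMUSG00000021228, 84052144 to 84060402) was 107.78, 72.4, 51.83, 104.74 and 112.9 FPKM in WT 1 to 5 and 35.93, 27.07, 38.86, 31.73 and 26.7 FPKM in KO 1 to 5. The lowest WT library, WT 3, lay above the highest KO library, KO 3. The WT mean was 89.9 ± 26.6 FPKM and the KO mean 32.1 ± 5.36 FPKM (SD, n = 5 each). Acot3 thus fell by 1.43 on the log2 scale (SE 0.21, 95% interval -1.90 to -0.96; adjusted p = 0.0045 by limma). An exact permutation test, two-sided, returned p = 0.0079, which 5 against 5 libraries cannot go below.

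Acot4, a peroxisomal enzyme that hydrolyses succinyl-CoA and other dicarboxylic acyl-CoAs, was 56.84, 36.02, 33.05, 61.68 and 62.88 FPKM in WT and 32.08, 33.2, 32.35, 32.75 and 29.01 FPKM in KO. WT 3 lay just under KO 2, so the genotypes overlapped, and WT 2 and WT 3 were far below the other WT libraries. The means were 50.1 ± 14.4 and 31.9 ± 1.66 FPKM (SD, n = 5 each), and the log2 difference was -0.59 (SE 0.18, adjusted p = 0.061 by limma). The adjusted p was 0.039 without WT 2 and 0.014 without WT 3.

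Acot1, the most abundant member, releases long-chain fatty acids in the cytosol. It was 430.7, 258.42, 262.55, 496.38 and 598.99 FPKM in WT and 327.53, 359.84, 329.37, 334.55 and 277.31 FPKM in KO. Every KO library lay inside the WT range, between the low pair WT 2 and WT 3 and the other 3. The log2 difference was -0.25 (SE 0.22, 95% interval -0.75 to 0.24; adjusted p = 0.53 by limma).

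Acot2, its mitochondrial counterpart, was 44.43, 25.05, 24.02, 64.01 and 78.59 FPKM in WT and 41.76, 42.82, 37.14, 41.97 and 36.44 FPKM in KO. The same WT libraries were low as for Acot1. The log2 difference was -0.08 (SE 0.31; adjusted p = 0.90 by limma), and its sign turned to 0.07 without WT 4 and 0.14 without WT 5. Since the reads of Acot1 and Acot2 can be split in more than 1 way, their sum was also taken: it was 457 ± 172 FPKM in WT and 366 ± 32.4 FPKM in KO (SD, n = 5 each), with all KO sums inside the WT range.

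Acot6, the last gene of the cluster, was barely detected, at 0.47 to 0.92 FPKM in WT and 0.47 to 0.72 FPKM in KO, or about 33.6 to 73.7 fragments per library. The log2 difference was -0.18 (SE 0.12; adjusted p = 0.40 by limma).

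Acot5 went the other way from Acot3. It was 0.29, 0.28, 0.26, 0.15 and 0.35 FPKM in WT and 1.48, 1.05, 0.7, 1.85 and 0.61 FPKM in KO. All KO libraries lay above all WT libraries, with KO 4 highest. The log2 difference on the log2(FPKM + 0.5) scale was 1.04 (SE 0.20; adjusted p = 0.010 by limma). The values stood for about 4.45 to 10.5 fragments per WT library and 16.4 to 49.5 per KO library. Of the 50-base windows of Acot5 14.1% also occurred in Acot3, and of its 100-base windows 7.33%.

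**Figure D2:**
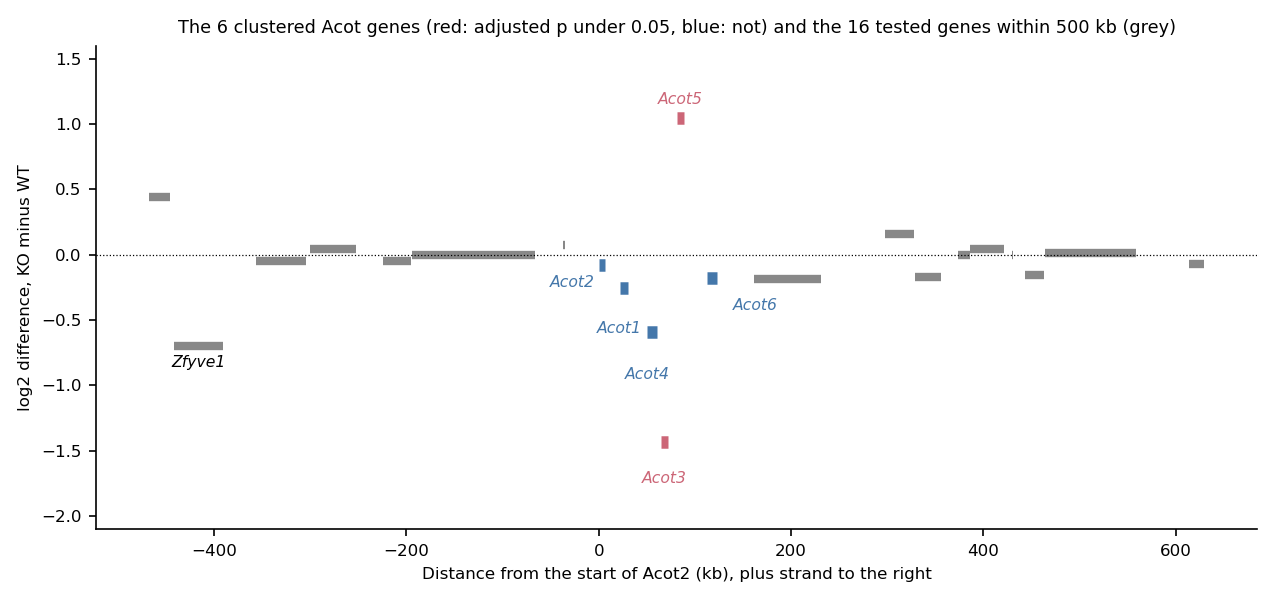
The log2 difference (KO minus WT, vertical axis) of the 6 clustered Acot genes (red where called, blue where not) and of the 16 tested genes within 500 kb (grey), against distance from the start of Acot2 in kb; each bar spans its gene. Acot3 at -1.43 and Acot5 at 1.04 are neighbours and lie farthest from 0.

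The drop of Acot3 exceeded that of each other tested member of the cluster. The ratio of Acot3 to Acot4 was 1.79 ± 0.17 in WT, from 1.57 to 2.01, and 1.01 ± 0.16 in KO, from 0.815 to 1.20 (SD, n = 5 each). The genotypes did not overlap in this ratio, although they did in Acot4 itself. On the log2 scale Acot3 fell by 1.18 relative to Acot1, by 1.35 relative to Acot2, by 0.84 relative to Acot4 and by 1.25 relative to Acot6. Each of these 4 comparisons had an exact two-sided permutation p = 0.0079, also 0.0079 after Benjamini-Hochberg adjustment over the 4. Acot3 was known from earlier results of these data to differ.

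**Figure D3:**
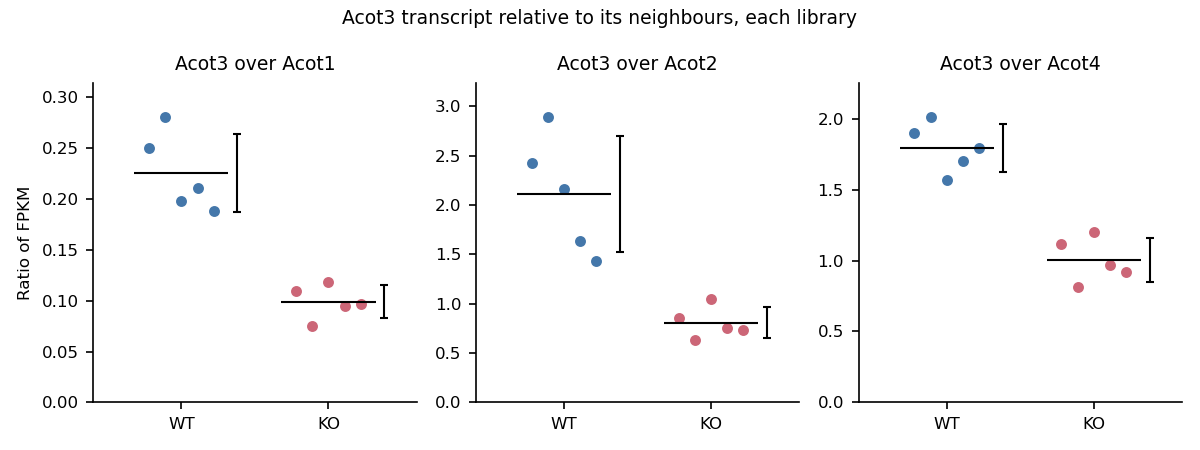
FPKM of Acot3 divided by that of Acot1, Acot2 and Acot4 (vertical axes, linear from 0) in each WT (blue) and KO (red) library, with mean and SD. In all 3 panels every KO point lies under every WT point, for Acot3 over Acot4 at 0.815 to 1.20 against 1.57 to 2.01.

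Of the 16 tested genes within 500 kb of the cluster none rose and 1 fell, and their median log2 difference was -0.00. The gene that fell was Zfyve1, which encodes a FYVE-domain protein and lies 390.6 kb from the cluster, at 13.1 ± 3.02 FPKM in the WT and 7.86 ± 1.79 FPKM in the KO libraries (SD, n = 5 each; log2 difference -0.70, limma adjusted p = 0.029). Its call was lost in 9 of 20 alternative settings.

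The promoters of the neighbours Acot4, Acot3 and Acot5 are shown because they lie side by side and their log2 differences ranged from -1.43 in Acot3 to 1.04 in Acot5, with Acot4, at -0.59, not called. Each window runs from 250 bases before to 50 bases after the start, on the plus strand of chromosome 12 (RefSeq, GRCm38.p6), at chr12:84038129-84038428 for Acot4, chr12:84051894-84052193 for Acot3 and chr12:84069074-84069373 for Acot5. Acot3 and Acot5 each had 2 promoters listed, and only the most upstream is shown and was searched. Capitals mark matches on either strand to AGGTCA, the half-site of many nuclear receptors, and to TATAAA, the TATA box (2 matches to TATAAA, on opposite strands, overlap in Acot4):

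Acot4: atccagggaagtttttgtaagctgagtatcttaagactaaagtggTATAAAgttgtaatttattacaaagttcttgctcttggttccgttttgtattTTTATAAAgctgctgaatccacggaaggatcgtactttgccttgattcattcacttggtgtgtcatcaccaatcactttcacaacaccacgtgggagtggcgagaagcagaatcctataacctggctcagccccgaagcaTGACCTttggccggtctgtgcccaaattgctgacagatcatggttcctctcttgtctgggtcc
Acot3: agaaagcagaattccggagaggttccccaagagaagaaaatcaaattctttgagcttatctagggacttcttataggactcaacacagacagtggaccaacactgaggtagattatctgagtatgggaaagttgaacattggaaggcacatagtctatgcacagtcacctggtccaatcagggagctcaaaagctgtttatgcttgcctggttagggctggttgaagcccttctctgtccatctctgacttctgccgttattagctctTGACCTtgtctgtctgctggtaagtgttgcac
Acot5: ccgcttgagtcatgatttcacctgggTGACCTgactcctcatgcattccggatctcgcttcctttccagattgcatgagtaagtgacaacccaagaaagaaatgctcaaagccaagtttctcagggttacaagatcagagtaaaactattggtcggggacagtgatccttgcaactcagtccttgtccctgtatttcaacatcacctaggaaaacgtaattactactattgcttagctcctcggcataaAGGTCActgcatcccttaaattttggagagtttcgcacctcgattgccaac

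AGGTCA occurred once in Acot4, once in Acot3 and 2 times in the Acot5 window, and once in the promoter of Acot12. It occurs in 16.3% of the 32851 promoters of the same length, and TATAAA in 13.6%. The TATAAA matches of Acot4 lay at -205, -153 and -151 bases from the start, and whether any serves as a TATA box was not tested. None of the member promoters held the DR1 site bound by PPAR alpha, in which AGGTCA is repeated after 1 base (0.0396% of promoters), TTCNNNGAA, the STAT site (8.30%), or CAAAGTCCA, a site of HNF4 (0.475%). For DR1 only the exact repeat was searched, so its absence covers that form alone. Imperfect repeats were not looked for, and whether a member promoter holds one was not tested. A match is a description of letters and not a bound site, and no match says only that the letters are not in this window. The promoter windows of Acot3 and Acot4 were 79.1% identical over 234 aligned bases, with gaps left out, and those of Acot3 and Acot5 70.7% over 249. Those of Acot2 and Acot3 reached 74.5% over 235. As a share of all 300 bases these were 61.7%, 58.7% and 58.3%, against 60.7% for Acot1 and Acot4 and 57.3% for Acot4 and Acot5. Whether such identity exceeds that of unrelated promoters was not tested. Acot6 and Acot13 had no promoter entry.

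For each clustered gene except Acot5, WT libraries differed among themselves more than KO libraries did. The SD of log2 values was 3.97 times as large in WT as in KO for Acot1, 7.08 times for Acot2, 5.82 times for Acot4 and 2.03 times for Acot3, against a median of 1.08 over all tested genes. A ratio as high occurred in 1.56%, 0.212%, 0.449% and 13.0% of tested genes. Acot6 had a ratio of 1.49, reached by 28.2% of tested genes, and Acot5 one of 0.309, so its KO libraries were the more variable. WT 2 and WT 3 were the low WT libraries for Acot1, Acot2, Acot4 and Acot3.

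Targets of PPAR alpha outside the family, 33 genes, were lowest in the same 2 WT libraries. Their mean log2 level, centred over the 10 libraries, was 0.03, -0.27, -0.25, 0.20 and 0.20 in WT 1 to 5 and -0.12, 0.01, 0.17, -0.01 and 0.04 in KO. Of 25 female-biased liver genes 24 were tested. These gave 0.90, 0.59, -0.51, 0.86 and 0.61 in WT and -0.20, -0.61, -0.35, -0.67 and -0.63 in KO, so WT 3 alone among the WT libraries lay with the KO libraries there. Of these 24 genes 6 fell, Abcd2 among them, and none rose, with a median log2 difference of -0.69. Leaving out 1 library gave 3 to 12 that fell. Of 19 male-biased genes tested 7 rose, Nudt7 among them, and none fell, with a median of 0.41. Leaving out 1 library gave 4 to 7 that rose and 0 to 1 that fell. The part of these lists in the Acot values was not tested.

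**Figure D4:**
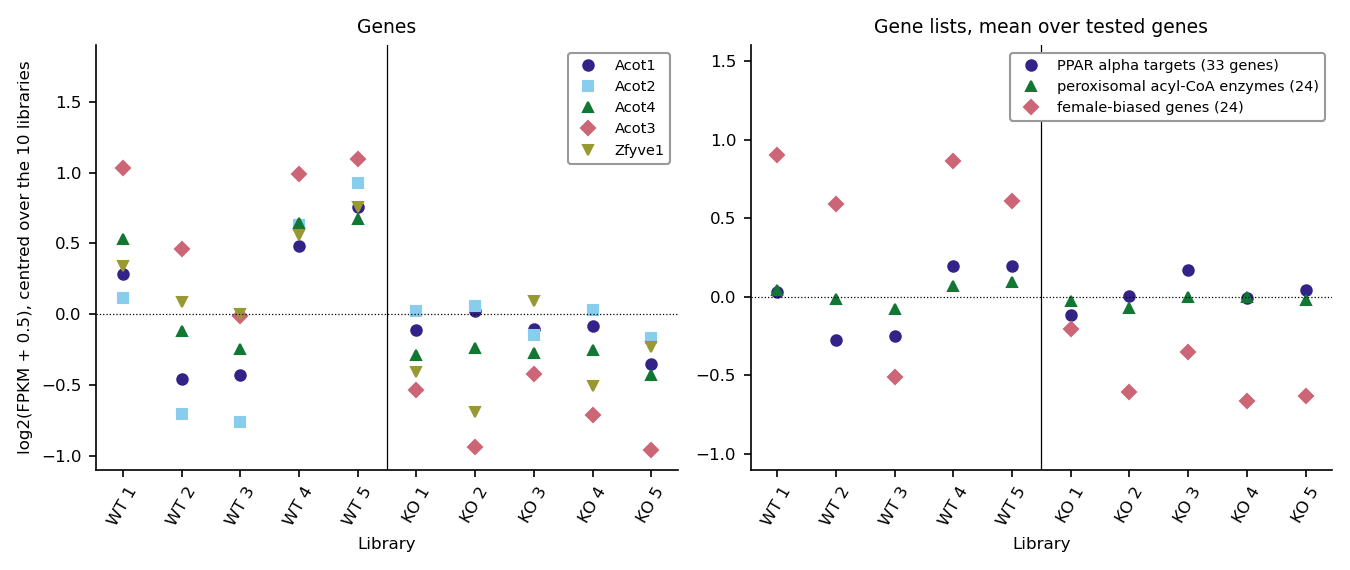
Left, log2(FPKM + 0.5) of Acot1, Acot2, Acot4, Acot3 and Zfyve1 in each library, centred over the 10 libraries; right, the mean of the same quantity over the tested genes of 3 lists. WT 2 and WT 3 are the low WT libraries for the Acot genes and for PPAR alpha targets, at -0.27 and -0.25.

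Of the type II members only Acot12 was called. Acot12, which hydrolyses acetyl-CoA in the cytosol (chromosome 13, 91741512 to 91786148, plus strand), was 81.66, 82.26, 89.01, 83.74 and 81.86 FPKM in WT and 93.66, 100.36, 99.92, 101.92 and 98.01 FPKM in KO. The highest WT library, WT 3, lay under the lowest KO library, KO 1. The WT mean was 83.7 ± 3.07 FPKM and the KO mean 98.8 ± 3.18 FPKM (SD, n = 5 each). Acot12 rose by 0.24 on the log2 scale (SE 0.04, 95% interval 0.14 to 0.33; adjusted p = 0.0093 by limma, exact permutation p = 0.0079).

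Acot13, a mitochondria-associated enzyme also called Them2, was 42.64 to 54.58 FPKM in WT and 44.4 to 49.11 FPKM in KO (log2 difference -0.05, limma adjusted p = 0.72). Acot8, the broad peroxisomal type II enzyme, was 30.36 to 41.46 FPKM in WT and 27.97 to 41.64 FPKM in KO (-0.23, limma adjusted p = 0.25). KO 3 was the highest of all 10 libraries for Acot8, whereas the other 4 KO libraries were at 31.62 FPKM or less.

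Acot7, a cytosolic long-chain enzyme best known in brain, was 12.3 to 14.69 FPKM in WT and 12.73 to 16.25 FPKM in KO (log2 difference 0.10, limma adjusted p = 0.48). Acot9, a mitochondrial enzyme encoded on the X chromosome, was 1.84 to 2.9 FPKM in WT and 2.18 to 3.31 FPKM in KO (0.26, limma adjusted p = 0.23). Both ranges overlapped.

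**Figure D5:**
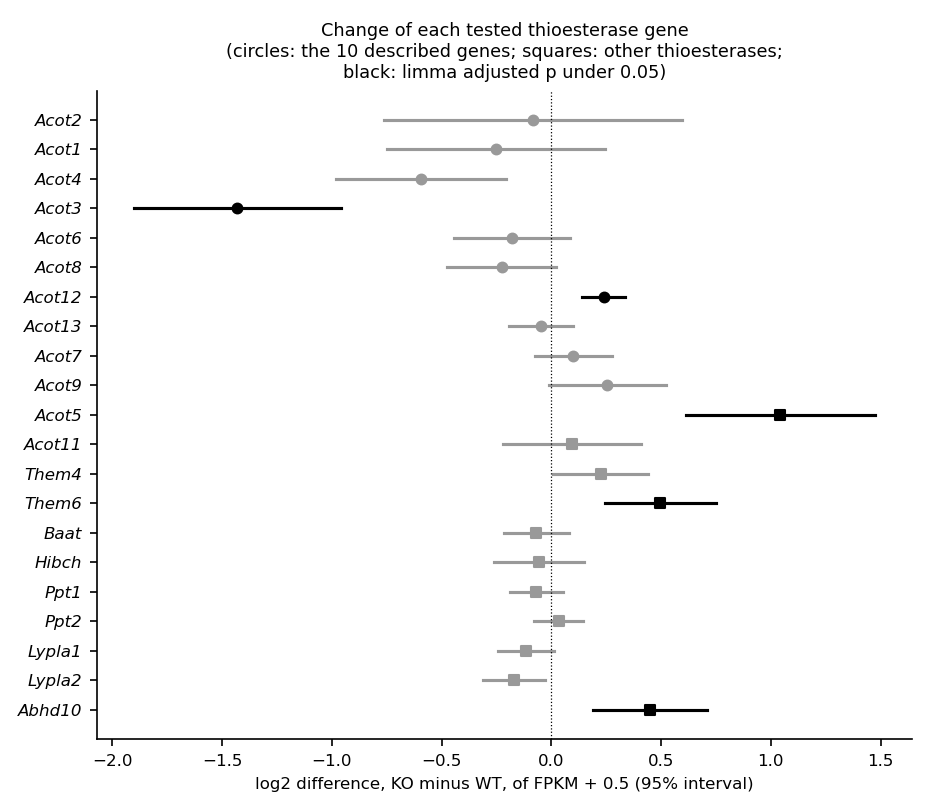
Log2 difference (KO minus WT, horizontal axis) with its 95% interval for the 10 members (circles) and 11 other tested thioesterase genes (squares), black where called. Acot3 at -1.43 is the only black point left of 0; Acot12 and 3 others lie right of it.

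In level, Acot1 stood first in both genotypes, at 51.2% of the summed FPKM of the 10 members in WT and 52.1% in KO. Acot3 went from 11.4 ± 1.45% to 5.13 ± 0.77% of that sum and Acot12 from 11.4 ± 3.43% to 15.9 ± 0.99% (SD, n = 5 each). A share also moves with the sum, and the FPKM of Acot12 itself rose to 118% of WT. The sum was 782 ± 206 FPKM in WT, from 557 to 1033, and 625 ± 38.5 FPKM in KO, from 560 to 658 (SD, n = 5 each), and the ranges overlapped. The peroxisomal type I members Acot3, Acot4 and Acot6 together gave 141 ± 40.8 FPKM in WT and 64.5 ± 6.19 FPKM in KO, 45.8% of WT. Most of that drop was Acot3 itself, from 89.9 to 32.1 FPKM, while Acot4 was not called and Acot6 was at 0.92 FPKM or less. Acot8, also peroxisomal, is not in this sum. The type II members gave 185 ± 5.33 FPKM in WT and 194 ± 9.07 FPKM in KO.

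Among 14 other thioesterase genes 11 were tested, 3 rose and none fell. Without KO 1 or without KO 2 only 1 rose. The genes that rose besides Acot5 were Them6, from 4.01 to 5.80 FPKM (log2 difference 0.50, limma adjusted p = 0.025), and Abhd10, a mitochondrial depalmitoylating enzyme, from 2.27 to 3.28 FPKM (0.45, limma adjusted p = 0.040). Them6 lost its call without KO 1 or without KO 2 (adjusted p up to 0.055), and Abhd10 lost it in 10 settings (up to 0.092). Acot11, expressed mainly in brown fat, was 0.68 to 1.54 FPKM over all libraries, and Acot10 was listed at 0 in all.

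The genes whose pattern over the 10 libraries was most like that of Acot3, by Pearson correlation of log2 values, were Hdac5 (r = 0.985), Qpct (0.979) and Fas (0.976). For Acot12 they were Prkar1a (0.974), Arf6 (0.968) and Atp5f1 (0.966). Part of each r is the genotype difference that the pair shares, and no test was made.

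Of the acyl-CoA synthetases, which act against the thioesterases, 15 were tested, 2 rose, 1 fell and 12 did not pass, with a median log2 difference of -0.02. These counts were not stable: none fell in 12 of 20 settings, and Acsm5, the gene that fell, lost its call in 13 of 20. In 9 of 20 settings 1 gene rose in place of 2, among them all 5 that left out a KO library and those without WT 1, WT 4 or WT 5. Acsf3, a mitochondrial malonyl-CoA synthetase, rose from 15.9 to 19.4 FPKM (log2 difference 0.29). Of 16 genes of coenzyme A synthesis and turnover 1 rose and 1 fell, with a median of 0.08. Leaving out 1 library gave 1 to 2 that rose and 0 to 2 that fell, with 0 without WT 5, KO 1, KO 4 or KO 5. Nudt7, a peroxisomal enzyme that cleaves coenzyme A, rose from 38.2 ± 1.67 to 52.9 ± 5.46 FPKM (SD, n = 5 each; log2 difference 0.46), and Slc25a42, the mitochondrial coenzyme A carrier, fell from 61.9 to 45.2 FPKM (-0.45), a call lost in 5 settings.

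Of 24 peroxisomal acyl-CoA enzymes 3 rose and 4 fell, with a median of 0.02. None rose without KO 3, without KO 4 or without KO 5, and 1 rose without WT 1, while 3 to 5 fell in every setting. Hacl1, which shortens 2-hydroxy acyl-CoA, fell from 253 to 176 FPKM (log2 difference -0.52), Abcd2, a peroxisomal acyl-CoA importer, from 13.6 to 7.98 FPKM (-0.74) and Scp2, a thiolase and lipid carrier, from 1553 to 1294 FPKM (-0.26). Ehhadh, of peroxisomal beta-oxidation, rose from 1253 to 1934 FPKM (0.65), a call lost in 5 settings. Of the 33 PPAR alpha targets 3 rose, 1 fell and 29 did not pass, with a median of 0.00. Only 1 rose without KO 3, KO 4 or KO 5. Leaving out 1 library gave 0 to 2 that fell, and the fall, of Acadm, was lost in 9 of 20 settings. Cd36, the fatty acid transporter, rose from 84.1 to 126 FPKM (0.58).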

How the data were processed

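Paired-end libraries were made from poly-A RNA of liver, per the labels' protocols. The deposited values were FPKM per gene and library, computed by the authors, and were used as deposited. STAR, RSEM, R 4.0.2, DESeq, DESeq2 and mm10 are named in the submitters' processing notes, with no role for each. Neither the annotation release nor the strand setting is given in the sources used here, so overlapping and antisense genes can share reads. Each FPKM depends on the total of its library.

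Genes averaging 0.5 FPKM or more were fitted with limma 3.58.1 in R 4.3.3 (eBayes, trend and robust) on log2(FPKM + 0.5), which understates the change of low genes, with genotype as the only term. Tests were two-sided. No count model was fitted, since FPKM are normalized values. Ratios of Acot3 to its neighbours were compared by exact permutation of the libraries. The fit was tested on simulated data. Positions came from the GENCODE mouse release M21 and promoters from RefSeq.

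Depth was estimated from genes whose values are worth 1 fragment, with 1 length offset shared by all libraries. A first version with an offset per library gave 20000000 to 26200000 fragments and was replaced after its values were seen. On simulated libraries the shared offset returned 94.8% to 96.2% of the known depths and the first version 95.3% to 102%. No test used depth, and fragment numbers of low genes are approximate.

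The members and the gene lists were chosen with earlier results of these data known. Named genes were the 10 members, up to 4 called genes of each list by p, the 3 genes most like each called member, called genes within 500 kb of the cluster, and Etnppl. Only some of them are described. Acot11, Acot10 and Alb are named outside this rule. Alternatives were other pseudocounts, filters and scalings, library weights, a replicate block and each library left out.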

Additional observations from a re-analysis of the deposited data

Results flagged for a closer look

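In 9 of 102 groups of 5 libraries examined, 1 library stood far from the other 4 by Dixon's criterion, where chance gives about 5.1, or 1 in 20. Among the members, Acot12 was 89.01 FPKM in WT 3 against 81.66 to 83.74 FPKM in the other WT libraries. Acot4 was 29.01 FPKM in KO 5 against 32.08 to 33.2 FPKM. In KO 3, Acot6 was 0.72 FPKM against 0.47 to 0.54 FPKM and Acot8 was 41.64 FPKM against 27.97 to 31.62 FPKM.

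Among other named genes, WT 3 stood apart in 3. Cyp3a44, a female-biased cytochrome P450, was 35.16 FPKM there against 119.93 to 147.37 FPKM, Hacl1 was 197.22 FPKM against 256.05 to 275.05 FPKM, and Susd4, a male-biased gene, was 5.38 FPKM against 1.7 to 2.7 FPKM. Acbd3 was 7.98 FPKM in WT 4 against 7.29 to 7.48 FPKM. Cyp2u1 was 8.4 FPKM in KO 1 against 3.44 to 4.17 FPKM.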

How the results depend on the processing

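Acot3 and Acot12 kept their calls in all 20 alternative settings, with log2 differences of -1.61 to -1.33 (limma adjusted p up to 0.024) and 0.23 to 0.26 (up to 0.043). Acot5 kept its call in the 19 that tested it (0.72 to 1.68, up to 0.040). Acot4 ranged from -0.73 to -0.50 (0.014 to 0.128), so that 2 members were lower, in place of 1, with library weights, without WT 2 or without WT 3. Leaving out 1 library gave 1 to 2 lower members. Acot2 turned to 0.07 without WT 4 and 0.14 without WT 5, in a leave-one-out range of -0.28 to 0.14. Acot13 turned to 0.00020 without WT 2, in a range of -0.088 to 0.00020. The 4 ratios of Acot3 kept their direction in 12 settings each. In 10 of these 1 library is left out, which cannot make separated groups overlap, so the kept p there says nothing about stability.

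Over all genes, 488 were higher and 558 lower. Without the filter these were 294 and 370 of 21111 genes tested. Leaving out 1 library gave 259 to 456 higher and 317 to 544 lower. The higher share of calls was 46.7% as deposited, 53.6% with median-of-ratios scaling, 52.0% with upper-quartile scaling and 56.1% with quantile normalization. With the replicate number as a block, 230 were higher and 321 lower. Same-numbered libraries deviated together with r of 0.09, 0.16, -0.21, 0.01 and 0.21, so the numbers were not taken to pair the samples. Not every library correlated best with its own number. The cause of these shifts was not tested. Depth limits Acot5, Acot6 and Acot9, at about 4.45 to 117 fragments per library.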
